A study of Mus musculus with 18 samples.

Results

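The question addressed here is how far the answer of fibroblasts to hypertonic medium depends on Nfat5, the gene of a transcription factor that responds to osmotic stress. It was read as a difference of differences: the change from isotonic to hypertonic medium in Nfat5 knock-out cells (KO) minus the same change in wild-type cells (WT). The array titles chose the members, which are 12 of the 18 arrays of the series, 3 in each of 4 groups. All are mouse embryonic fibroblasts of strain 129sv/ev. The WT arrays come from a line labelled wild-type 5.4 and 5 of the 6 KO arrays from a line labelled knock-out 5.1, while the sixth, isotonic KO array 1, carries the wild-type label. Each was kept in isotonic medium, titled 300, or in hypertonic medium, titled 500, with no unit given in the titles and no time in hypertonic medium stated in the labels. None of these 4 groups received Torin1, an inhibitor of the kinase mTOR. The other 6 arrays are WT cells given 100 nM Torin1 for 1 h before either medium, and they enter only where named. Since each genotype is 1 line, genotype and line cannot be told apart, and whether the 3 arrays of a group are separate cultures is not stated. The p-values therefore measure the spread between these arrays, which may be technical.

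Cells that lose water in hypertonic medium first take up salts and then replace them with organic osmolytes such as myo-inositol, betaine, taurine and sorbitol, which do not disturb proteins. NFAT5, also called TonEBP, is a Rel-family factor that accumulates in the nucleus under such stress, binds tonicity-responsive elements around the core TGGAAA, and raises the genes of osmolyte transporters, osmolyte-making enzymes and certain chaperones. It is best known from the kidney medulla, and fibroblasts use it when their medium becomes hypertonic.

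RefSeq promoters of the assembly GRCm38.p6 were matched by symbol to 12311 of the 15666 genes tested, and 4 of them are shown because the results below turn on their genes. Each run is the 250 bases before the start of transcription, 5′ to 3′, and capitals mark TGGAAA or its reverse complement TTTCCA. Slc5a3 (chr16:92058072-92058321, plus strand) is the classical NFAT5 target, Slc6a12 (chr6:121342324-121342573, plus) and Pnpla6 (chr8:3516613-3516862, plus) are further osmolyte genes, and Il1f9 (chr2:24186226-24186475, plus) has the largest difference in the other direction. For Slc6a12, with 5 promoters listed, and Pnpla6, with 3, the first promoter holding the core is given.
Slc5a3: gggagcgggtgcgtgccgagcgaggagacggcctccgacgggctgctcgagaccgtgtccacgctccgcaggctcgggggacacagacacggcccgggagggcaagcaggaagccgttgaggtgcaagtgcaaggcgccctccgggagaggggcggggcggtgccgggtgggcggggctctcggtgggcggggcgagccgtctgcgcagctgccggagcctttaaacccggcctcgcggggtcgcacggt
Slc6a12: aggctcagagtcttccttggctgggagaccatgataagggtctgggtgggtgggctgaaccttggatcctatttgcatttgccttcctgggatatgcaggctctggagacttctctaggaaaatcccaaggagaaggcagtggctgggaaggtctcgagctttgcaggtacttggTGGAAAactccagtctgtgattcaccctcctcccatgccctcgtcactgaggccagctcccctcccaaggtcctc
Pnpla6: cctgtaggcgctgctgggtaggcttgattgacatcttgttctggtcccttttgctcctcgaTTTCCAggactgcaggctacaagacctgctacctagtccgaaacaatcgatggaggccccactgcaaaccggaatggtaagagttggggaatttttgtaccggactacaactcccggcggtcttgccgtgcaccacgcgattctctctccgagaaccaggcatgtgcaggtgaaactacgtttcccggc
Il1f9: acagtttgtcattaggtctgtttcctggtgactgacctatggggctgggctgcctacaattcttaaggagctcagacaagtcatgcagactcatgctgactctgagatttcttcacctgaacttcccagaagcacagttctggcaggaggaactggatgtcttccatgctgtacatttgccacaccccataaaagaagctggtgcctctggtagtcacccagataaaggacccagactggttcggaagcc
The Slc6a12 promoter holds TGGAAA from position -75 and the Pnpla6 promoter holds TTTCCA from position -189, counted from the start of transcription. The Slc5a3 and Il1f9 windows hold neither, which says only that these letters are not in this window. The start of Mrps6 lies 14 bases downstream of that of Slc5a3 on the same strand, so that the 2 genes share this stretch. Over the 300 bases of each listed promoter, which run 50 bases past the start, 21.4% of 32851 promoters hold the core on either strand.

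Levels are log2 RMA signals, a change is hypertonic minus isotonic on that log2 scale, and a response difference is the KO change minus the WT change, given ± the standard error of the limma fit (n = 3 arrays in each group). Arrays carry the numbers 1, 2 and 4 in each group and values are listed in that order. The isotonic KO array 1, whose genotype and source labels both say wild-type, was kept as KO by its title. Over 1249 genes that separate the lines in hypertonic medium by at least 2-fold without overlap, it lay at 1.01 on a scale where the isotonic WT mean is 0 and the other 2 isotonic KO arrays are 1, while the WT arrays lay between -0.02 and 0.04. Results are given with and without it. The count of genes whose same-numbered arrays differed at least 2-fold between media was 619, 291 and 168 in WT and 898, 903 and 866 in KO. The WT pair of number 4 thus showed the smallest change, and the count does not say which array of that pair is the cause. All 11 fibroblast markers measured were above the filter on dim genes, with mean levels of 10.53 to 10.65 in isotonic WT and 11.84 to 11.98 in isotonic KO arrays. So were all 8 epithelial, 6 adipocyte and 5 neural markers measured, and passing the filter therefore does not tell cell types apart. The mean levels of these 3 sets in isotonic WT arrays were 6.51 to 6.57, 6.43 to 6.45 and 6.52 to 6.75.

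Nfat5 itself was measured by 1 probe set. Its levels were 10.13, 9.99 and 9.94 in isotonic WT, 10.77, 10.46 and 10.18 in hypertonic WT, 9.83, 9.72 and 9.73 in isotonic KO, and 10.13, 10.22 and 9.73 in hypertonic KO arrays. The isotonic KO arrays were below the isotonic WT arrays without overlap, with a mean difference of -0.26 that did not pass (adjusted p = 0.35). A transcript signal is thus present in the KO arrays. The labels do not give the deleted part of the gene, so this probe set does not check the genotype. The response difference of Nfat5 was -0.19 ± 0.22 (adjusted p = 0.723).

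In the KO line the response to hypertonic medium differed from WT at 1135 of 15666 genes (7.24% of those tested, limma with Benjamini-Hochberg adjustment, adjusted p below 0.05). The response was lower in KO at 764 genes (4.88%) and higher at 371 (2.37%), and a difference of at least 2-fold was found at 273 (1.74%) and 81 (0.517%) of them. The genes with the largest lower responses included the myo-inositol transporter Slc5a3, its neighbour Mrps6 and the decoy death receptors Tnfrsf22 and Tnfrsf23. Among the higher responses, the cytokine Il1f9 stood first, followed by the kinase Nuak2. Without isotonic KO array 1, 572 genes passed, 204 higher and 368 lower, and 564 of them were among the 1135. The split by direction rests on the scaling. Centring each array on its own gene-level median moved the median difference of all genes from -0.01 to 0.17, and 1067 genes were then higher and 454 lower, so that 70.2% of calls were higher in place of 32.7%. Quantile normalization gave 47.8% and cyclic loess 43.1%. The hypertonic KO arrays have the lowest gene-level medians, 7.57, 7.53 and 7.53 log2, against 7.64 to 7.74 in the other 9. In the gene lists below, a count of members is to be read against these shares of all genes, 2.37% higher and 4.88% lower, or 6.81% higher and 2.9% lower after centring. At an unadjusted p below 0.05, 22.2% of all genes pass (3478), 8.75% higher (1370) and the other 2108 lower.

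Of the 46 named genes with a different response, 6 have a group mean below the filter of 5.86 log2 and passed it through a brighter group. They are Il1f9, Tnfsf18, Lpl, Slc1a1, Ptpn22 and Kcnj16. A change within the dim range shows no level, so their fitted differences depend on dim signals, and their folds below are bounds against the filter level.

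The 2 arms of the difference share no arrays. Before any stress, in isotonic medium, 1110 genes were higher (7.09%) and 1016 lower (6.49%) in KO than in WT, and this starting level is given below where it bears on a gene. In WT, 519 genes rose (3.31%) and 560 fell (3.57%) in hypertonic medium, and in KO 1975 rose (12.6%) and 2635 fell (16.8%). Both lines shared 417 genes that fell, which are 74.5% of those that fell in WT and 15.8% of those that fell in KO. They shared 219 genes that rose, 42.2% and 11.1% of the respective lists. Across genes, which are not independent replicates, the 2 changes correlated with r = 0.46. There were 28 genes that rose in WT and fell in KO, and 9 that did the reverse. Slc5a3, Tnfrsf22, Tnfrsf23 and the glutamate transporter Slc1a3 are among the 28. So are, named here after their values were seen, Map2k6, a kinase that activates p38, with a response difference of -2.40 ± 0.30, and Fgf10, a fibroblast growth factor, at -2.27 ± 0.30. The 9 include Nuak2, Tfcp2l1, Slc1a1 and Gadd45b.

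**Figure D1:**
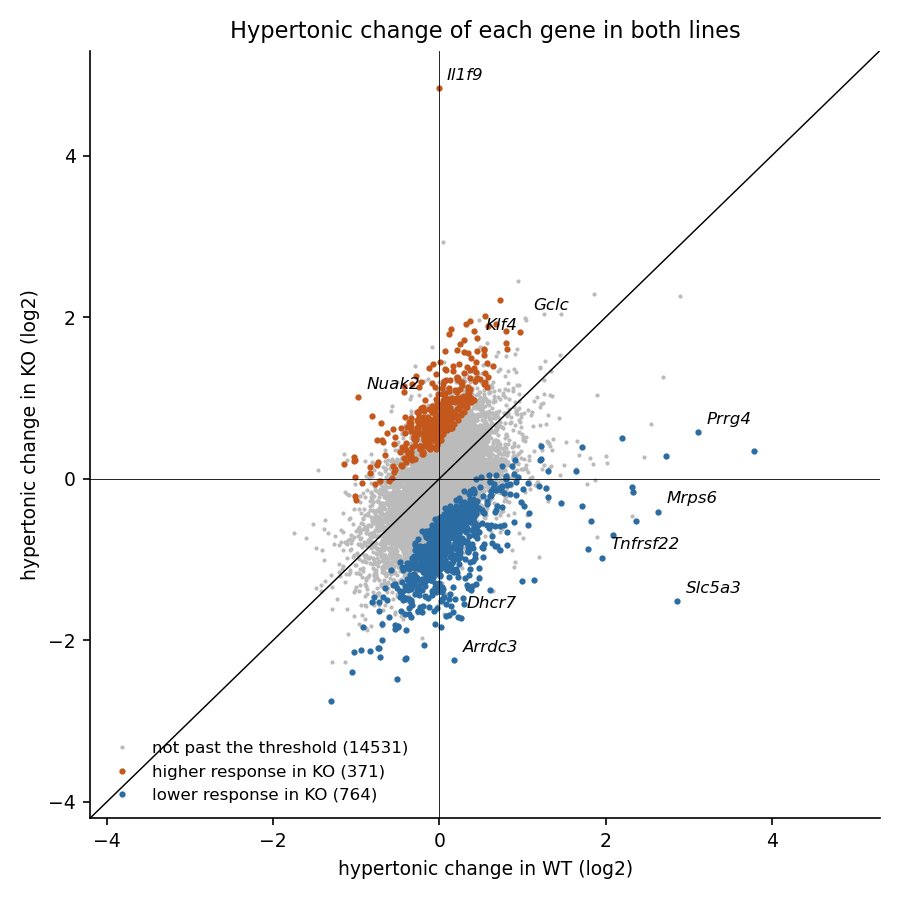
Hypertonic change (log2) of each of 15666 genes in KO (vertical) against WT (horizontal), with the line of equal change. Orange points are the 371 genes with a higher and blue points the 764 with a lower response in KO, and Il1f9 and Slc5a3 lie farthest from the line.

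Osmolyte genes come first. Of 12 measured members of a list of osmolyte transport genes and known NFAT5 targets, 3 had a lower response in KO and 0 a higher one, with a median difference of -0.77 against -0.01 over all genes. The 3 were Slc5a3, Hspa1a and Pnpla6. In WT 5 of the 12 rose with hypertonic medium, against 3.31% of all genes, and 0 fell, against 3.57%. In KO 2 rose, against 12.6% of all genes, and 1 fell, against 16.8%. Without isotonic KO array 1 the list had 2 lower members and 1 higher, the kinase Sgk1, at 0.77 (0.59 ± 0.21 with the array, adjusted p = 0.115). In turn, without hypertonic WT array 4 it had 6 lower members. With that array, the WT group was wide for several of these genes.

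Slc5a3 encodes the sodium-coupled transporter that brings myo-inositol into the cell. Its levels were 8.26, 8.68 and 8.75 in isotonic WT, 11.76, 11.63 and 10.88 in hypertonic WT, 11.67, 11.75 and 11.09 in isotonic KO, and 10.19, 10.34 and 9.43 in hypertonic KO arrays. The WT arrays rose with hypertonic medium and the KO arrays fell, in both lines without overlap between media. In isotonic medium the KO arrays already stood at the levels of hypertonic WT, above isotonic WT by 2.94 (adjusted p = 3.65e-05). WT rose by 2.86 log2 (7.28-fold) and KO fell by 1.52 log2 (2.86-fold). KO and WT changes thus differed by -4.38 ± 0.41 (adjusted p = 0.00121), and by -4.30 without isotonic KO array 1.

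Mrps6, a protein of the small subunit of the mitochondrial ribosome, is the gene that shares the promoter shown above. It read 9.70, 9.87 and 9.72 in isotonic WT, 12.84, 12.68 and 11.68 in hypertonic WT, 12.18, 12.06 and 11.25 in isotonic KO, and 11.59, 11.54 and 11.13 in hypertonic KO arrays. It followed the order of Slc5a3 in WT, and in KO its media overlapped. Its response difference was -3.05 ± 0.43 (adjusted p = 0.00487), and -2.87 without isotonic KO array 1. Whether either probe set also reads transcripts of the other gene was not tested.

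Pnpla6, an esterase that releases glycerophosphocholine, an osmolyte, from membrane lipids, had levels of 9.40, 9.16 and 9.15 in isotonic WT and 9.88, 9.95 and 9.83 in hypertonic WT arrays. The isotonic KO arrays read 9.42, 9.18 and 9.22, and the hypertonic KO arrays 9.17, 9.23 and 9.23. All 3 hypertonic WT arrays were above every other array. The response difference of -0.71 ± 0.14 passed (adjusted p = 0.0144), also without isotonic KO array 1 (-0.64).

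The betaine transporter Slc6a12, the water channel Aqp1 and the chaperone Hspa4l, known as osmotic stress protein, showed a wide WT group. Slc6a12 read 6.71, 6.93 and 6.73 in isotonic WT, 9.39, 9.04 and 6.995 in hypertonic WT, 6.80, 6.92 and 6.86 in isotonic KO, and 6.93, 7.05 and 7.47 in hypertonic KO arrays. Hypertonic WT arrays 1 and 2 were high, and array 4 lay near the isotonic level. Its response difference of -1.40 ± 0.66 did not pass (adjusted p = 0.244). Aqp1 had hypertonic WT levels of 11.41, 10.79 and 9.28 against 9.19, 8.86 and 8.11 in isotonic WT, and lay between 7.72 and 7.999 in the 6 KO arrays, with a difference of -1.84 ± 0.61 (adjusted p = 0.097). Hspa4l had 10.29, 10.29 and 8.63 against 7.76, 7.94 and 7.50 in WT, and 6.22 to 6.66 in KO, with a difference of -1.72 ± 0.49 (adjusted p = 0.0586). Without hypertonic WT array 4 each of these 3 passed, at -2.14, -2.45 and -2.27. Slc6a6, the taurine transporter, was lower in isotonic KO than in isotonic WT by 2.33 log2 (adjusted p = 0.000113), and its response difference was -0.14 ± 0.37 (adjusted p = 0.893), of no settled sign under other scalings. Akr1b3 and Hspa1b were not analysed here.

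Among 20 heat shock proteins and co-chaperones, 1 had a lower response in KO, 1 a higher one, against 7.24% of all genes called in either direction, and the median difference was 0.03. After centring of the arrays 4 were higher and 1 lower. The lower one was Hspa1a, the inducible Hsp70, with levels of 9.23, 9.35 and 9.36 in isotonic WT, 10.72, 10.55 and 10.33 in hypertonic WT, 9.57, 9.32 and 9.41 in isotonic KO, and 9.62, 9.95 and 9.94 in hypertonic KO arrays. It rose in both lines, by 1.23 in WT and 0.40 in KO, and the hypertonic WT arrays were the highest. The difference of -0.83 ± 0.18 (adjusted p = 0.0212) lost its call without hypertonic WT array 2 (-0.82, adjusted p = 0.0607), and it became -0.76 (adjusted p = 0.0565) when isotonic KO array 1 was dropped. The higher one was Hsf2, a heat shock transcription factor, at 0.60 ± 0.12 (adjusted p = 0.016), whose call was lost without hypertonic WT array 2. Leaving that array out brought the members called to 0, leaving out isotonic KO array 1 to 1, and leaving out hypertonic WT array 4 to 4.

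**Figure D2:**
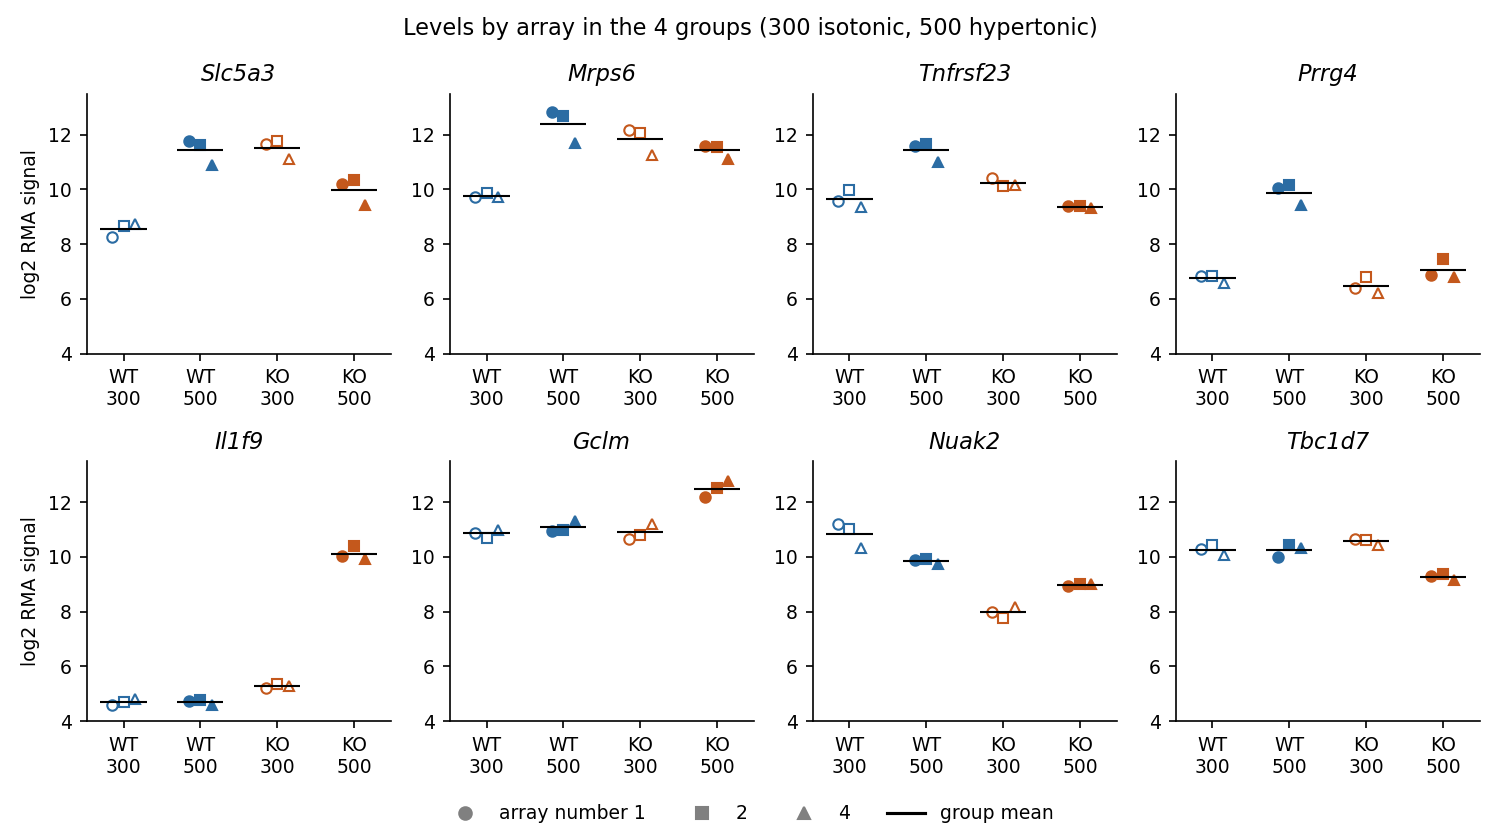
Log2 RMA signal of 8 genes in the 12 arrays, by line and medium, with marker shapes for array numbers 1, 2 and 4 and a bar at each group mean. Slc5a3 is high in hypertonic WT and already in isotonic KO arrays, and Il1f9 is near 10 in the 3 hypertonic KO arrays and under 5.4 elsewhere.

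A list of genes tied to the restraint of mTORC1, the kinase complex that promotes growth when nutrients are plentiful, held called members in both directions. Of 17 measured members 5 had a lower and 1 a higher response in KO, with a median difference of -0.43, and 4 lower and 1 higher passed without isotonic KO array 1. Ddit4l, an inhibitor of mTORC1 signalling, read 6.69, 6.76 and 8.32 in isotonic WT, 9.41, 9.11 and 9.51 in hypertonic WT, 11.54, 11.26 and 10.84 in isotonic KO, and 10.67, 10.62 and 10.25 in hypertonic KO arrays. It rose in WT by 2.09, and in isotonic KO it stood 3.96 above isotonic WT. Its response difference was -2.79 ± 0.51 (adjusted p = 0.012), and -2.62 without isotonic KO array 1.

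The other 4 lower members had WT changes between -0.10 and 0.08, of which 0 passed. Tbc1d7, the third subunit of the TSC complex that switches off the mTORC1 activator Rheb, read 10.28, 10.43 and 10.06 in isotonic WT, 10.01, 10.42 and 10.33 in hypertonic WT, 10.64, 10.62 and 10.43 in isotonic KO, and 9.31, 9.36 and 9.15 in hypertonic KO arrays. The hypertonic KO arrays were the lowest 3 of the 12. Its change was 0.00 in WT and it fell by 1.29 in KO, a response difference of -1.29 ± 0.18 (adjusted p = 0.00543). Nprl3 and Depdc5 are subunits of GATOR1, which turns off the Rag GTPases that recruit mTORC1. Their response differences were -1.15 ± 0.20 (adjusted p = 0.00906) and -0.69 ± 0.16 (adjusted p = 0.0274). The call of Depdc5 was lost under centring (adjusted p = 0.0669), quantile normalization (adjusted p = 0.0725) and cyclic loess (adjusted p = 0.0537), without isotonic KO array 1 (-0.67, adjusted p = 0.0687) and without any 1 of isotonic KO array 4, hypertonic KO arrays 1 and 2, isotonic WT arrays 1 and 2, and hypertonic WT array 2. Sesn1, a sestrin, which restrains mTORC1 when amino acids are short, had a difference of -0.78 ± 0.15 (adjusted p = 0.0136). The higher member, Fnip1, is a partner of folliculin in nutrient signalling, with a difference of 1.03 ± 0.17 (adjusted p = 0.0079). Its place in the list does not mean that Fnip1 restrains mTORC1. Ddit4, the relative of Ddit4l, had a difference of -1.51 ± 0.59 that did not pass (adjusted p = 0.153).

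Amino acid transporters were described by 22 measured members, of which 4 had a lower and 1 a higher response in KO, with a median difference of -0.32. Slc1a3, which takes up glutamate and aspartate, read 6.86, 6.70 and 6.88 in isotonic WT, 8.96, 8.49 and 8.48 in hypertonic WT, 11.57, 11.60 and 11.70 in isotonic KO, and 11.02, 11.17 and 11.12 in hypertonic KO arrays. It rose by 1.83 in WT, fell by 0.52 in KO and stood 4.81 higher in isotonic KO than in isotonic WT. The response difference was -2.35 ± 0.18 (adjusted p = 0.000281), and -2.37 without isotonic KO array 1.

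Slc1a1, which carries glutamate and cysteine, had changes of the opposite sign in both lines. Its levels were 9.61, 9.90 and 9.80 in isotonic WT, 9.05, 9.04 and 9.55 in hypertonic WT, 5.84, 5.78 and 5.74 in isotonic KO, and 6.40, 6.38 and 6.43 in hypertonic KO arrays. It fell in WT and its signal rose in KO. The isotonic KO mean is below the filter, so isotonic WT was at least 15.1-fold higher, and the size of the rise in KO is not settled. For Slc1a1 the response difference was 1.17 ± 0.19 (adjusted p = 0.00732), and 1.20 without isotonic KO array 1. Slc43a2, a transporter of large neutral amino acids, fell in KO by 1.03, with a response difference of -1.40 ± 0.22 (adjusted p = 0.00704). Slc1a5, the glutamine exchanger, and Slc7a6, an exchanger of basic for neutral amino acids, had differences of -1.04 ± 0.26 (adjusted p = 0.0345) and -0.60 ± 0.15 (adjusted p = 0.0349). The call of Slc1a5 was lost without isotonic KO array 1 (adjusted p = 0.0801), under centring of the arrays (adjusted p = 0.0606) and without any other array except isotonic WT array 2 and hypertonic WT array 4. That of Slc7a6 was lost without isotonic KO array 1 (adjusted p = 0.0766), under centring (adjusted p = 0.115) and without any other array except isotonic WT array 2, hypertonic WT array 4 and hypertonic KO array 4. The list had 3 members called in place of 5 without any 1 of hypertonic KO arrays 1 and 2, isotonic KO arrays 1, 2 and 4, hypertonic WT arrays 1 and 2, and isotonic WT array 1.

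TNF-family genes showed 2 members lower and 2 higher among 19 measured, with and without isotonic KO array 1, and a median difference of 0.09. Without hypertonic WT array 4, 4 were lower. Tnfrsf22 and Tnfrsf23 encode neighbouring mouse decoy receptors for the death ligand TRAIL. Tnfrsf23 read 9.57, 9.98 and 9.35 in isotonic WT, 11.58, 11.67 and 11.02 in hypertonic WT, 10.41, 10.12 and 10.17 in isotonic KO, and 9.37, 9.39 and 9.31 in hypertonic KO arrays. It rose in all 3 WT pairs of like number and fell in all 3 KO pairs. Its response difference was -2.66 ± 0.26 (adjusted p = 0.00176), and -2.58 without isotonic KO array 1. Tnfrsf22 read 9.77, 9.60 and 8.99 in isotonic WT, 11.92, 11.70 and 10.63 in hypertonic WT, 9.25, 9.35 and 8.80 in isotonic KO, and 8.15, 8.23 and 8.09 in hypertonic KO arrays. It showed the same order of media in each line, with a response difference of -2.94 ± 0.43 (adjusted p = 0.00558) and -2.88 without isotonic KO array 1. As the 2 sequences are close relatives, cross-reading between their probe sets was not tested.

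The higher TNF-family members were Tnfrsf11b, a decoy receptor also called osteoprotegerin, and Tnfsf18, the ligand of GITR. Tnfrsf11b read 11.83, 11.61 and 11.64 in isotonic WT, 11.28, 11.28 and 11.67 in hypertonic WT, 10.15, 10.33 and 9.98 in isotonic KO, and 11.58, 11.48 and 11.24 in hypertonic KO arrays. Isotonic KO was the low group, and hypertonic KO overlapped hypertonic WT. The response difference was 1.56 ± 0.20 (adjusted p = 0.00365), the same without isotonic KO array 1. Tnfsf18 read 6.87, 7.63 and 6.83 in hypertonic KO, at least 2.38-fold above the other 3 groups, which lay at 4.93 to 5.76, below the filter. It had a fitted difference of 1.67 ± 0.37 (adjusted p = 0.0222). Its call was lost without hypertonic WT array 2 or isotonic WT array 2.

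Cytokines and chemokines gave 1 higher and 0 lower of 21 measured, with a median difference of 0.15. The 1 was Il1f9, which belongs to the interleukin-1 family, is released by barrier tissues and activates NF-kB in neighbouring cells. It read 4.58, 4.70 and 4.82 in isotonic WT, 4.73, 4.77 and 4.58 in hypertonic WT, 5.22, 5.36 and 5.28 in isotonic KO, and 10.04, 10.40 and 9.93 in hypertonic KO arrays. The hypertonic KO arrays stood apart from the other 9, which lay in the range of dim probe sets below the filter of 5.86. The hypertonic KO mean was at least 19.2-fold above the other 3 groups, taken at the filter level, and the WT arrays show no level in either medium. The fitted KO minus WT difference was 4.85 ± 0.18 (adjusted p = 1.87e-07), and 4.81 without isotonic KO array 1. Ccl3, a chemokine, had a KO change of 2.93 and a difference of 2.89 ± 0.99 that did not pass (adjusted p = 0.109). It passed without hypertonic KO array 4, at 1.78, and a second member of the list also passed without hypertonic WT array 4 or isotonic WT array 1.

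Immediate early genes, which cells switch on within minutes of a signal, had 3 higher and 0 lower members of 21 (median difference 0.13), 4 higher after centring, and 2 higher without isotonic KO array 1. Klf4, a stress-responsive transcription factor, read 9.54, 9.74 and 9.51 in isotonic WT, 10.27, 9.99 and 9.89 in hypertonic WT, 8.19, 8.15 and 8.33 in isotonic KO, and 9.80, 9.96 and 10.13 in hypertonic KO arrays. From a low isotonic level in KO it reached that of hypertonic WT. KO exceeded WT in its change by 1.29 ± 0.17 (adjusted p = 0.00453). Zfp36, a protein that speeds the decay of cytokine mRNAs, had a difference of 1.28 ± 0.19 (adjusted p = 0.00558). For Fosl2, an AP-1 subunit, it was 1.14 ± 0.25 (adjusted p = 0.0213), lost without isotonic KO array 1 (adjusted p = 0.0573), isotonic KO array 2, hypertonic KO array 2 or hypertonic WT array 2.

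Ptgs2, the inducible cyclooxygenase, was the 1 higher member of 13 prostaglandin genes. It read 11.56, 12.17 and 12.28 in isotonic WT, 12.92, 12.94 and 12.36 in hypertonic WT, 9.10, 9.41 and 9.70 in isotonic KO, and 11.67, 11.81 and 11.37 in hypertonic KO arrays. The KO arrays rose by 2.22 from an isotonic level 2.60 log2 below WT. The response difference of 1.48 ± 0.32 (adjusted p = 0.0217) lost its call without isotonic KO array 1 (1.33, adjusted p = 0.056), and the list had 0 members called without hypertonic KO array 1 or 2, isotonic KO array 1 or 2, or isotonic WT array 2. Without isotonic KO array 4 or hypertonic WT array 4 it had 2, which without hypertonic WT array 4 were 1 higher and 1 lower. Of 14 subunits and inhibitors of NF-kB, 0 passed by limma, while 6 were higher and 0 lower at an unadjusted p below 0.05, with a median difference of 0.50 against -0.01 over all genes. After centring 2 were higher. With hypertonic KO array 4 left out, 1 of them passed, with isotonic KO array 4 left out, 4 did, and with array weights 6 did. In that order, these fits called 1521, 962 and 3969 of all 15666 genes.

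Glutathione synthesis and other targets of NRF2, the factor that answers oxidants and electrophiles, had 3 higher and 0 lower members of 19, with and without isotonic KO array 1, 6 higher after centring, and a median difference of 0.20. Gclm, the modifier subunit of the enzyme that makes the first bond of glutathione, read 10.88, 10.70 and 10.99 in isotonic WT, 10.93, 10.97 and 11.32 in hypertonic WT, 10.67, 10.79 and 11.21 in isotonic KO, and 12.17, 12.51 and 12.77 in hypertonic KO arrays. All 3 hypertonic KO arrays were above every other array. The response difference was 1.38 ± 0.26 (adjusted p = 0.0128), and 1.27 without isotonic KO array 1. Gclc, the catalytic subunit, rose in both lines, by 1.03 in WT and 1.99 in KO. Its difference of 0.96 ± 0.30 did not pass (adjusted p = 0.0799). It passed after centring (1.13, adjusted p = 0.0384), with all 18 arrays in 1 fit (adjusted p = 0.0307) and with array weights (adjusted p = 0.0127). With any 1 array left out it did not pass, nor with all arrays of number 4 left out (0.58, adjusted p = 0.11).

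Hmox1, heme oxygenase, read 9.94, 10.36 and 10.16 in isotonic WT, 10.78, 10.50 and 10.22 in hypertonic WT, 11.49, 11.21 and 11.04 in isotonic KO, and 12.69, 12.95 and 12.76 in hypertonic KO arrays. The KO arrays were the higher ones in both media. Its response difference was 1.20 ± 0.23 (adjusted p = 0.0148), and 1.32 without isotonic KO array 1. Me1, the malic enzyme that makes NADPH, had a difference of 0.67 ± 0.14 (adjusted p = 0.0178), lost without hypertonic KO array 2 or hypertonic WT array 2.

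Cholesterol synthesis and uptake genes had 1 lower and 0 higher member of 20, with a median difference of -0.51. In KO 7 of the 20 fell, against 16.8% of all genes, and in WT 0 did, against 3.57%. With 1 of the 20 past the test of the difference, these arm counts do not show that the lines differ. Dhcr7, the enzyme of the last step of cholesterol synthesis, read 8.87, 9.31 and 9.30 in isotonic WT, 9.50, 9.61 and 9.04 in hypertonic WT, 10.22, 9.94 and 9.23 in isotonic KO, and 8.14, 8.21 and 7.91 in hypertonic KO arrays. The hypertonic KO arrays were the lowest 3. The response difference was -1.94 ± 0.34 (adjusted p = 0.00993), and -1.72 without isotonic KO array 1. The count of members was 1 without that array and 4 without isotonic KO array 4.

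Among 18 circadian clock genes 2 were higher and 0 lower (median difference 0.36), and 5 higher after centring. The 2 were Cry1 at 1.14 ± 0.22 (adjusted p = 0.0137) and Nr1d2 at 0.89 ± 0.23 (adjusted p = 0.0367), both repressors of the clock. Cry1 read 7.51, 7.99 and 7.96 in isotonic WT, 8.18, 7.92 and 7.62 in hypertonic WT, 7.51, 7.51 and 7.65 in isotonic KO, and 8.80, 8.81 and 8.72 in hypertonic KO arrays. The hypertonic KO arrays were the highest 3. The call of Nr1d2 was lost without isotonic KO array 1 (adjusted p = 0.0698) and without any other array except isotonic WT array 4 and hypertonic WT arrays 1 and 4 and hypertonic KO array 4. In all, 1 clock gene was called without either of hypertonic KO arrays 1 and 2, isotonic KO arrays 1 and 2, hypertonic WT array 2, or isotonic WT arrays 1 and 2.

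Of 22 FOXO targets and factors 3 were higher and 0 lower, with a median difference of 0.44, 2 were higher without isotonic KO array 1, 4 after centring, and 6 without hypertonic WT array 4. They were Gadd45b, a stress-induced regulator of p38 and JNK signalling, at 1.13 ± 0.18 (adjusted p = 0.00775), Ulk1, the kinase that starts autophagy, at 0.78 ± 0.15 (adjusted p = 0.0151), and the cyclin Ccng2 at 0.69 ± 0.17 (adjusted p = 0.0308). Gadd45b fell in WT by 0.68 and rose in KO by 0.45. The call of Ccng2 was lost without isotonic KO array 1 (adjusted p = 0.0649), isotonic KO array 2, hypertonic KO array 1 or 2, isotonic WT array 1 or 4, or hypertonic WT array 1 or 2. Of 19 p53 targets, 1 was higher, Mdm2, the ubiquitin ligase of p53, at 0.65 ± 0.14 (adjusted p = 0.0222), and 1 was lower, Sesn1, given above. Mdm2 was called in neither fit without isotonic KO array 1 (adjusted p = 0.0508) nor those without hypertonic KO array 2, isotonic KO array 2 or hypertonic WT array 2, which leaves 1 p53 target in each.

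Of 24 genes of the unfolded protein response and ATF4, 1 was higher, Dnajb9, a chaperone partner in the endoplasmic reticulum, at 0.68 ± 0.16 (adjusted p = 0.0319). It was not called without any 1 of hypertonic KO arrays 1 and 2, isotonic KO arrays 1 and 2, hypertonic WT arrays 2 and 4, and isotonic WT arrays 1 and 2. In 8 further lists 0 members passed by limma, with or without centring. At an unadjusted p below 0.05, higher and lower members numbered 1 and 3 of 27 for glycolysis and HIF-1 targets, 1 and 2 of 16 for ion transport in cell volume control, 1 and 1 of 27 for ribosome biogenesis, and 0 and 2 of 27 for DNA replication. They numbered 0 and 0 of 23 for mitosis, 1 and 0 of 16 for actin and SRF targets, 0 and 0 of 22 for collagens and their modifying enzymes, and 1 and 0 of 15 for interferon-stimulated genes. The 27 glycolysis and HIF-1 genes include Pigq, matched to the listed symbol Gpi1 by a synonym, which is not a glycolysis gene. Pigq, with a difference of -0.47, is 1 of the 3 lower members there. Array weights, which called 3969 of all 15666 genes, called members in each of these 8 lists, from 1 to 5.

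**Figure D3:**
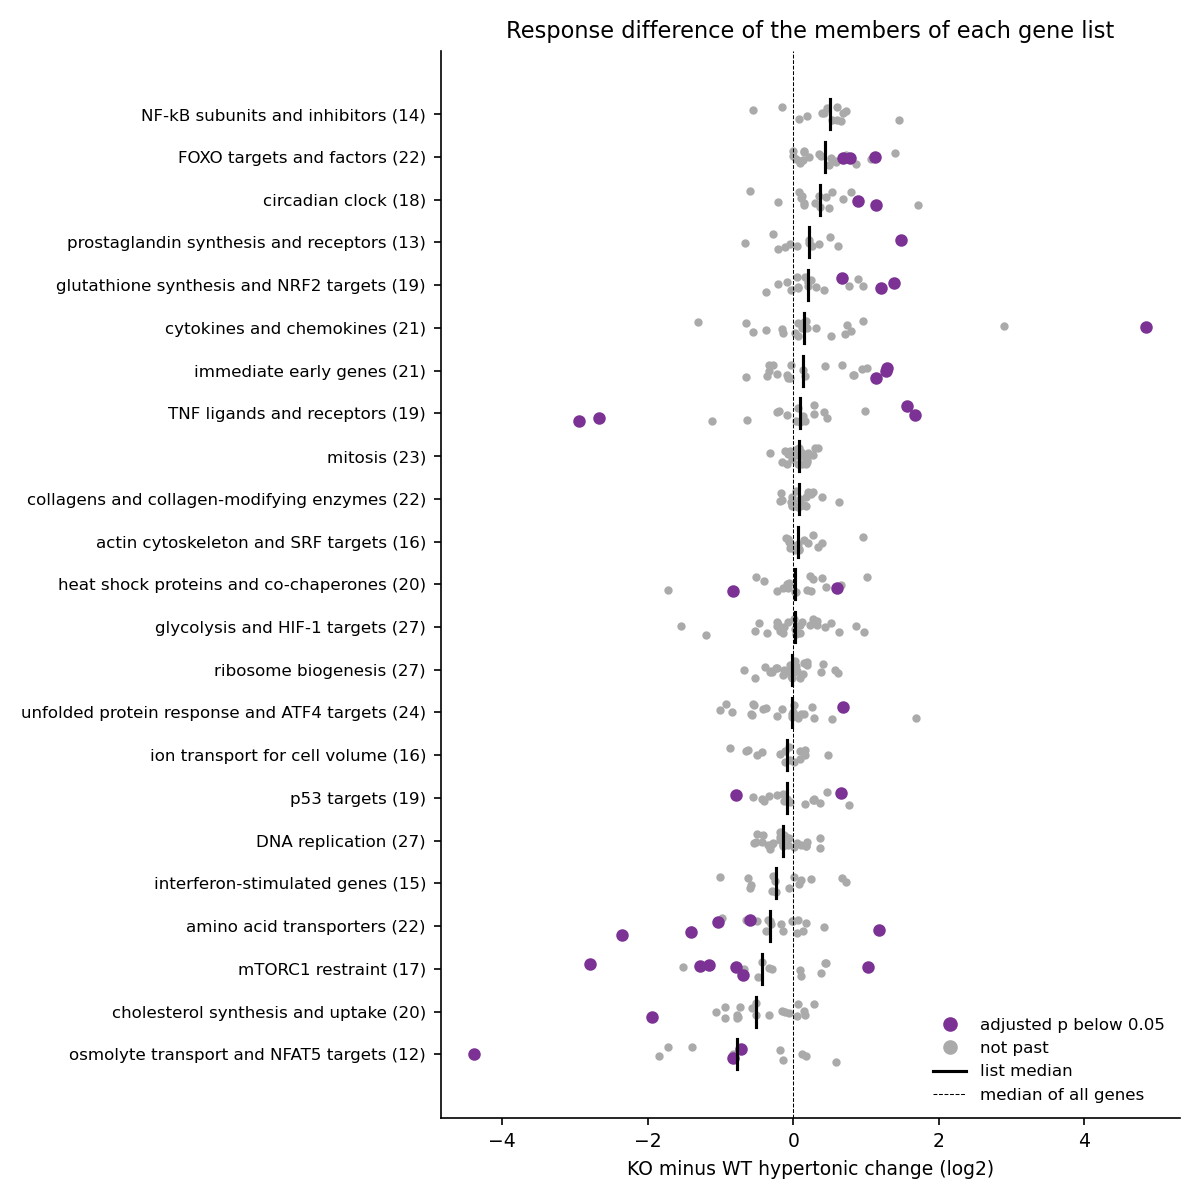
KO minus WT hypertonic change (log2) of each measured member of the 23 gene lists, with the number measured in brackets. Purple points have an adjusted p below 0.05, solid bars are list medians from -0.77 for osmolyte genes to 0.50 for NF-kB genes, and the dashed line is the median of all genes, -0.01.

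Outside these lists, the largest lower responses included Prrg4, a membrane protein with a Gla domain. It read 6.85, 6.85 and 6.59 in isotonic WT, 10.06, 10.17 and 9.41 in hypertonic WT, 6.41, 6.78 and 6.21 in isotonic KO, and 6.88, 7.45 and 6.79 in hypertonic KO arrays. Hypertonic WT stood above all other arrays. WT rose by 3.12 (8.68-fold), the KO change of 0.57 did not pass, and the response difference was -2.54 ± 0.32 (adjusted p = 0.00365), or -2.57 without isotonic KO array 1.

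Ptpn22, a tyrosine phosphatase, and Kcnj16, an inward rectifier potassium channel, varied among the hypertonic WT arrays. Ptpn22 read 9.15, 8.85 and 7.01 there and 5.67 to 6.09 in the other 9 arrays, around the filter, with a difference of -2.49 ± 0.58 (adjusted p = 0.0275) whose call was lost without isotonic KO array 1 (adjusted p = 0.0689), isotonic KO array 2, hypertonic KO array 1 or 2, isotonic WT array 1 or 2, or hypertonic WT array 2. Kcnj16 read 8.75, 8.28 and 7.40 there and 5.39 to 7.05 elsewhere, with a difference of -2.42 ± 0.54 (adjusted p = 0.0227). Its call was lost without hypertonic KO array 1 or 2 or hypertonic WT array 2. Taken at the filter level, hypertonic WT was at least 5.58-fold above hypertonic KO for Ptpn22. For Kcnj16 it was at least 4.89-fold above isotonic WT. Prxl2a, a peroxiredoxin-like protein, read 8.98, 8.26 and 9.49 in isotonic WT and 11.53, 11.62 and 10.69 in hypertonic WT, with a difference of -2.89 ± 0.61 (adjusted p = 0.0192). It was -2.60 without isotonic KO array 1 (adjusted p = 0.0501), and the call was also lost without hypertonic WT array 2.

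Arrdc3, an arrestin-like adaptor of receptor turnover, differed through its fall in KO. It read 10.48, 10.22 and 10.77 in isotonic WT, 11.24, 10.67 and 10.10 in hypertonic WT, 10.66, 10.46 and 10.12 in isotonic KO, and 8.01, 7.74 and 8.74 in hypertonic KO arrays. The first 3 groups overlapped and hypertonic KO lay below them. The difference was -2.43 ± 0.43 (adjusted p = 0.0104), and -2.30 without isotonic KO array 1.

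Among the higher responses, Nuak2, a kinase related to AMPK, fell in WT and rose in KO. It read 11.19, 11.01 and 10.32 in isotonic WT, 9.90, 9.93 and 9.76 in hypertonic WT, 7.99, 7.77 and 8.15 in isotonic KO, and 8.93, 9.02 and 8.99 in hypertonic KO arrays. The lines did not overlap in either medium, and the gap between them was smaller in hypertonic medium. The difference was 1.99 ± 0.27 (adjusted p = 0.00451), and 2.00 without isotonic KO array 1. Tfcp2l1, a transcription factor of the grainyhead family, showed the same order, with 8.68, 8.60 and 8.80, then 7.74, 7.87 and 8.04 in WT, and 6.52, 6.75 and 6.53, then 7.20, 7.56 and 7.38 in KO. Its difference was 1.59 ± 0.17 (adjusted p = 0.00193), and 1.55 without isotonic KO array 1.

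Plcxd2, a phospholipase C-like protein, Baz1a, a subunit of a chromatin remodeller, and Epb41l5, a FERM protein of epithelial shape, had differences of 1.72 ± 0.19, 1.59 ± 0.19 and 1.57 ± 0.25. All 3 rose in KO (by 1.86, 1.96 and 1.15) without a called change in WT, and were called without isotonic KO array 1. Atp10d, a lipid flippase, had a difference of 1.60 ± 0.38 (adjusted p = 0.0308), lost without isotonic KO array 1 (adjusted p = 0.062) and without any other array except isotonic WT arrays 1 and 4, hypertonic WT array 4 and hypertonic KO array 4.

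Lpl, lipoprotein lipase, read 5.52 to 5.64 in the 6 WT arrays, 9.20, 9.16 and 8.58 in isotonic KO, and 10.67, 10.49 and 10.54 in hypertonic KO arrays. The WT arrays lie below the filter and show no level, and the hypertonic KO mean was at least 26.1-fold above them. In KO it rose by 1.58 (adjusted p = 5.34e-05). The fitted difference was 1.52 ± 0.20 (adjusted p = 0.00432), and 1.63 without isotonic KO array 1. Lpl is 1 of 6 adipocyte markers measured, whose mean level was 6.43 to 6.58 in WT arrays, 7.83 to 8.49 in isotonic KO and 8.29 to 8.95 in hypertonic KO arrays. It was the 1 marker of the 6 with a different response, and the part of such cells in its level was not tested.

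**Figure D4:**
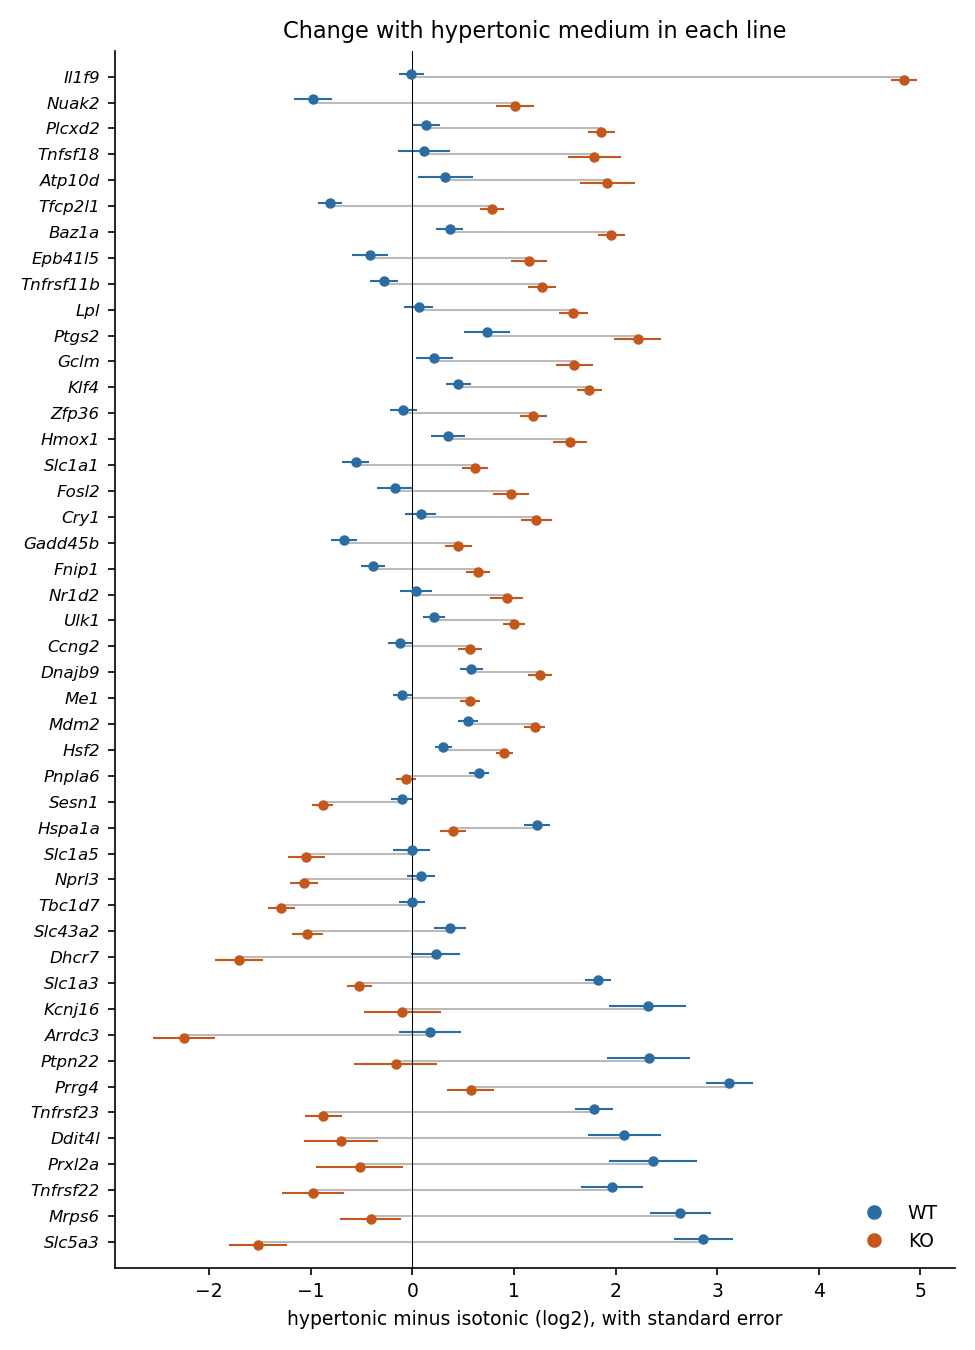
Hypertonic minus isotonic change (log2, bars are standard errors) in WT (blue) and KO (orange) of the 46 named genes with a different response, ordered by KO minus WT. At the bottom the WT points lie to the right, up to 3.12 for Prrg4, and at the top the KO points do, up to 4.84 for Il1f9, whose isotonic signal lies below the filter.

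The 6 Torin1 arrays, which the response difference does not use, give the hypertonic change in WT cells a second time, after mTOR inhibition. Of the 764 genes with a lower response in KO, 58 rose there (7.59%, against 1.66% of all genes) and 16 fell (2.09%, against 1.73%). These 58 are 22.3% of the genes that rose. Of the 371 genes with a higher response in KO, 18 rose (4.85%) and 23 fell (6.20%). Among the named genes 7 of 19 with a lower response rose and 0 fell, and of 27 with a higher response 2 rose and 2 fell. Slc5a3 rose with Torin1 present by 2.15 (adjusted p = 0.00117), Mrps6 by 2.34 (adjusted p = 0.00102), Prrg4 by 2.53 (adjusted p = 0.000872) and Slc1a3 by 1.10 (adjusted p = 0.00117). Tnfrsf23 at 1.79 (adjusted p = 0.00597), Tnfrsf22 at 1.61 (adjusted p = 0.0217) and Kcnj16 at 1.51 (adjusted p = 0.0417) passed too. Of genes described above for a lower response, Prxl2a at 1.49 (adjusted p = 0.0754), Ptpn22 at 1.39 (adjusted p = 0.173), Ddit4l at 0.87 (adjusted p = 0.325) and Arrdc3 at -0.22 (adjusted p = 0.792) did not. For Il1f9 the change was -0.11 (adjusted p = 0.795).

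Gene families by symbol were counted after the values had been seen. Of 77 mitochondrial ribosomal proteins (Mrpl and Mrps genes) 15 had a lower response in KO (19.5%, against 4.88% of all genes) and 0 a higher one, with a median difference of -0.28. After centring of the arrays 7 were lower and 1 higher, where 2.9% of all genes were lower and 6.81% higher. Of 324 Zfp zinc finger genes 43 were lower (13.3%) and 9 higher (2.78%), which became 30 and 25 after centring. The median difference of these zinc finger genes was -0.21 against -0.01 over all genes, and -0.04 against 0.17 after centring. Of 38 histone genes 5 were lower (13.2%) and 0 higher under either scaling. Of 306 Slc solute carrier genes 15 were lower (4.90%) and 5 higher (1.63%), near the shares of all genes. The smaller families counted were Dusp, with 1 of 23 lower and 2 higher, and Klf, with 0 of 16 lower and 1 higher. Of 18 Orc, Mcm and Pot1 genes 3 were lower (16.7%) and 0 higher. The 3 were Orc5, Pot1a and Orc3. Since these symbols were joined after the values were seen and are not 1 family, this share supports no statement about a family. The DNA replication list above, which holds Mcm genes, had 0 of 27 members called. The counts were read gene by gene with no test over a family.

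Promoter letters, gene span and level of the called genes are given as descriptions, the level from the arrays that also gave the calls. The core TGGAAA or TTTCCA lay in the promoter of 23.1% of genes with a lower response (142 of 614 with a promoter listed), 15.5% of those with a higher response (45 of 291) and 19.7% of all tested (2430 of 12311). A gene with several listed promoters was counted if any held the core. The median span of the gene was 16.5 kb for lower, 43.1 kb for higher and 20.3 kb for all genes. The promoter GC content was 59.4%, 65.7% and 60.0% in that order, and the median level 8.85, 9.79 and 8.63 log2. None of these was tested.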

How the data were processed

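Total RNA was measured on 18 Affymetrix mouse gene arrays. The authors deposited log2 values from RMA, for which the submitters' processing notes name R 2.11.1, and the values were used unchanged. For the genome build, not given in the sources used here, none was assumed. Of 34760 probe sets 21640 name 1 gene, 1321 name several and 11799 none. For 954 of 19937 genes with several probe sets, the one of highest mean in the 12 arrays was used. Genes whose highest group mean was above the 30th percentile of all values (5.86) were kept, 15666 in all.

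limma 3.58.1 in R 4.3.3 fitted a mean per group to the 12 arrays (8 residual and 3.18 prior degrees of freedom). All p-values are Benjamini-Hochberg adjusted over the 15666 genes, with calls below 0.05. The Torin1 arrays were fitted with all 18 arrays. With 3 arrays per group, their number limits the precision. On simulated data of 15666 genes for the response difference, 64 of 100 genes changed by 1 log2 and 96 of 100 changed by 2 were recovered, and 9 of 169 calls were false. The simulated arrays had independent noise, and the changed genes moved in hypertonic KO alone. Same-numbered arrays of the real data correlate, so this recovery and this share of false calls need not hold for them.

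The members, gene lists and tests were chosen with earlier results of these data known. Named genes are the 10 largest called increases and decreases whose number-matched changes do not overlap between lines, without gene models, small RNAs and multi-copy families, then up to 4 called members per list, and a fixed set of osmolyte, chaperone, mTORC1, glutathione and cytokine genes. Depdc5, Slc7a6, Ccl3, Sgk1, Map2k6 and Fgf10 were named after their values were seen. Alternatives covered the filter, probe sets, scaling, variance model, array weights, all 18 arrays, the replicate block and each array left out. All arrays of number 4 left out, the block within each line, and centring with the block were added after seeing the data. Motifs were searched on both strands of RefSeq promoters (GRCm38.p6).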

Additional observations from a re-analysis of the deposited data

Results flagged for a closer look

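The comparison is itself a difference between 2 lines under the same contrast, so each called result of it differs between groups by a test of that difference (limma interaction). The number of such genes was 1135, and 46 of the 53 named genes are among them. With lower responses in KO these were Slc5a3 at -4.38, Mrps6 at -3.05, Tnfrsf22 at -2.94, Prxl2a at -2.89, Ddit4l at -2.79, Tnfrsf23 at -2.66, Prrg4 at -2.54, Ptpn22 at -2.49, Arrdc3 at -2.43, Kcnj16 at -2.42 and Slc1a3 at -2.35. Then came Dhcr7 at -1.94, Slc43a2 at -1.40, Tbc1d7 at -1.29, Nprl3 at -1.15, Slc1a5 at -1.04, Hspa1a at -0.83, Sesn1 at -0.78 and Pnpla6 at -0.71. Of genes named after their values were seen, Map2k6 at -2.40, Fgf10 at -2.27, Depdc5 at -0.69 and Slc7a6 at -0.60 were also lower.

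With higher responses these were Il1f9 at 4.85, Nuak2 at 1.99, Plcxd2 at 1.72, Tnfsf18 at 1.67, Atp10d at 1.60, Tfcp2l1 at 1.59, Baz1a at 1.59, Epb41l5 at 1.57, Tnfrsf11b at 1.56, Lpl at 1.52, Ptgs2 at 1.48, Gclm at 1.38, Klf4 at 1.29, Zfp36 at 1.28 and Hmox1 at 1.20. Smaller ones were Slc1a1 at 1.17, Fosl2 at 1.14, Cry1 at 1.14, Gadd45b at 1.13, Fnip1 at 1.03, Nr1d2 at 0.89, Ulk1 at 0.78, Ccng2 at 0.69, Dnajb9 at 0.68, Me1 at 0.67, Mdm2 at 0.65 and Hsf2 at 0.60.

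Among 8416 probe sets without a single gene name, which no comparison above uses, 15 (0.178%) had a different response, 6 higher and 9 lower.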

How the results depend on the processing

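Of the 46 called named genes, 31 were called under all 13 alternatives and with each of the 12 arrays left out, 44 under the 13 alternatives alone, and none changed sign. Without isotonic KO array 1, 11 lost their call. With single arrays left out, between 404 (hypertonic WT array 2) and 1521 (hypertonic KO array 4) genes passed, 108 to 579 higher and 296 to 942 lower. The count also moved by over 1.5 times without isotonic KO array 1 (572), isotonic KO array 2 (600), hypertonic KO array 1 (562), hypertonic KO array 2 (471) or isotonic WT array 2 (686). Total, higher and lower counts were 2541, 919 and 1622 with all arrays of number 4 left out, and 3969, 1596 and 2373 with array weights. Centring of the arrays gave 1067 higher and 454 lower, and 2244 in all, 1548 higher, when combined with the replicate block. Slc6a6, not called, turned to 0.0291 under both centred fits, and ranged from -0.40 to 0.14 with single arrays left out. The cause was not tested. The labels do not say what the array numbers mean. After removing group means, same-numbered arrays correlated at r over 0.1 in 17 of 18 pairs (up to 0.752), and the last stood at 0.0951, below the 0.1 asked of every pair, so the fit has no block. As a hint from the data, 10 of 12 arrays were closest to one of their own number. With the replicate block 1734 genes passed, 628 of them higher, and 2876 with a block within each line, 1075 higher and 1801 lower. Of the 7 named genes not called, the block called Aqp1 (adjusted p = 0.0273), Hspa4l (adjusted p = 0.0259) and Gclc (adjusted p = 0.0358), and the block within lines the same 3 (adjusted p = 0.00224, 0.00721 and 0.0299).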
